A study of Mus musculus with 2 samples.

Results

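The 53 keratin genes of the mouse genome were examined for open chromatin in the fetal liver. They are all the protein-coding genes of the GENCODE M21 annotation whose symbol is Krt followed by digits, 53 of 21884 protein-coding genes with a symbol of their own. Of these, 27 lie on chromosome 11 and 26 on chromosome 15. DNase-seq, which reads accessible chromatin from the sites that the enzyme DNase I can reach, had been run on 2 libraries of liver tissue from mouse embryos aged 13.5 days. The labels give a mixed C57BL/6N,129 background, described as WT, with multiple copies of a yeast artificial chromosome named A85 YAC, and sex as not collected. Both libraries carry these same labels and the same donor label, come from separate tissue samples and are numbered as biological replicates 1 and 2. There is therefore 1 group with no second condition and no control, and all values below are given per replicate. The sources used here do not say what this YAC carries. The tissue was whole liver, so a low signal from many cells and a strong signal from a few cannot be told apart.

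Keratins are the intermediate filament proteins of epithelial cells and assemble as obligate pairs of an acidic type I and a basic type II chain. The type I genes form a cluster on mouse chromosome 11, and the type II genes form one on chromosome 15 that also holds Krt18, a type I gene beside its partner Krt8. Simple epithelia make KRT8 and KRT18, which are the main keratins of hepatocytes, while bile duct cells add KRT7 and KRT19. Epidermis, cornea and oral mucosa use the stratified epithelial keratins, and hair and nail use a further set. Type I members of that set neighbour the keratin-associated protein genes of the hair shaft. The genes were grouped here as 5 simple epithelial (Krt7, Krt8, Krt18, Krt19, Krt20), 20 stratified epithelial, 8 of the inner root sheath and companion layer of the hair follicle, 16 of hair and nail, and 4 others (Krt23, Krt80, Krt90, Krt222).

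Most keratin promoters lacked a peak, while a few regions between the genes were among the more open of the genome. The sequences that follow show the DNA on which these results turn. The first is the part of the Krt18 promoter region upstream of the gene's start (chr15:102028079-102028179), and the next 3 are the highest regions between Krt78 and Krt8 (chr15:101973741-101973960, chr15:101977381-101977660 and chr15:101984381-101984600). The last is the highest region between Krt42 and Eif1 (chr11:100298401-100298600). They were read from assembly GRCm38.p6, the build mm10 of the files, on the plus strand. Capitals mark bases that lie in a footprint, a stretch protected from cutting inside open chromatin, in both replicates. The Krt18 stretch holds none.
Krt18 upstream: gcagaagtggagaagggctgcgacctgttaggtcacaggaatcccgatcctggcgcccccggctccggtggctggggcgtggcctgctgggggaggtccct
Krt78 to Krt8, highest: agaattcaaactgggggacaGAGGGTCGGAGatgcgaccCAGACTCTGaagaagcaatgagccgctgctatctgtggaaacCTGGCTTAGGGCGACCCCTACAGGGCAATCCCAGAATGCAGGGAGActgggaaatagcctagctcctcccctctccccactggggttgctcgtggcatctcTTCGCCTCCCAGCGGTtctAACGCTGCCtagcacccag
Krt78 to Krt8, next highest: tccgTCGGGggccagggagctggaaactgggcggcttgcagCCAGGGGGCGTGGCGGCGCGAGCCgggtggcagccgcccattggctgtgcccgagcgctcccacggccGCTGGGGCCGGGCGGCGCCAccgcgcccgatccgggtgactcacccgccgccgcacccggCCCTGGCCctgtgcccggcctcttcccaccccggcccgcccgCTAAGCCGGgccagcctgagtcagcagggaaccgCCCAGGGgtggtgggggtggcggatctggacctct
Krt78 to Krt8, following: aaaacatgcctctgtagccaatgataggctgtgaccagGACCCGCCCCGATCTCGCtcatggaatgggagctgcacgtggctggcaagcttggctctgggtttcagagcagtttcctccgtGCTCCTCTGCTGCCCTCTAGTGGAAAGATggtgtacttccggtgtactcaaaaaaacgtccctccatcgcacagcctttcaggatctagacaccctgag
Krt42 to Eif1, highest: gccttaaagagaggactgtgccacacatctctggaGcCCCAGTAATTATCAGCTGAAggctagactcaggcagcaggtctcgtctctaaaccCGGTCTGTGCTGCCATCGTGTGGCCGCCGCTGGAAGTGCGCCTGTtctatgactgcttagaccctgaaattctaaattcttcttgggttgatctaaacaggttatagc
The 5 stretches hold 101, 220, 280, 220 and 200 bases, of which 0, 91, 73, 47 and 66 are in capitals. The 280-base stretch was the richest of the 5 in G and C, with 77.9% G or C and 31 CpG pairs.

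Replicate 1 had 76130 peaks and replicate 2 had 73852, with median peak values of 0.873 and 0.761. The value is the authors' own signal per peak, and its scale is not stated. All values were whole multiples of a step, 0.0127 in replicate 1 and 0.00604 in replicate 2, so a count was recovered for each peak. The median count per peak was 69 in replicate 1 and 126 in replicate 2, and the lowest was 7 in both. The sources used here give no library totals, so values were compared within a replicate or set side by side. A peak of 1 replicate that overlapped a peak of the other formed a shared region, and the genome held 45831 of these, with median values of 1.44 and 1.24. The peak lists hold only called peaks, so a promoter without a peak has no measured value.

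Over all keratin genes, 3 of 53 (5.66%, 95% Wilson interval 1.94 to 15.4) carried a shared region at a promoter, which here reaches 1 kb to each side of every transcript start of the gene. The share over all protein-coding genes was 58.4%. The 3 genes were Krt18, Krt10 and Krt222, and of these Krt18 alone had the region at the gene's own 5′ end, where the share over all genes was 53.7%. In replicate 1, 6 keratins had a promoter peak against 60.6% of all genes, and in replicate 2, 10 had one against 65.3%. In all, 13 keratins had a promoter peak in at least 1 replicate and 40 had none in either. Over all 21884 genes, 14683 had one in at least 1 replicate and 7201 had none. The 40 comprised 2 simple epithelial, 14 stratified, 7 inner root sheath and companion layer, 15 hair and nail, and 2 other keratins. No test was made between the keratin classes or against all genes, since the gene set was chosen with results of these data known.

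**Figure D1:**
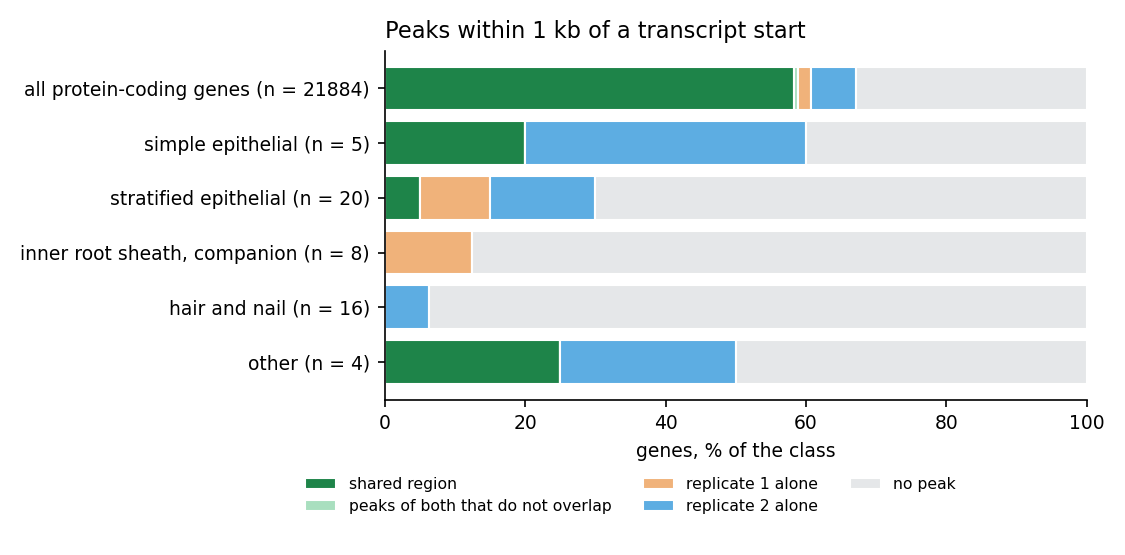
Share of genes of each class, in percent, by the peaks within 1 kb of a transcript start: a shared region, peaks of both replicates that do not overlap, a peak of 1 replicate alone, or no peak. Of all genes 58.4% had a shared region, against 1 of 5 simple epithelial keratins, 1 of 20 stratified keratins and 0 of 24 hair and follicle keratins.

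Among the simple epithelial keratins, the partners Krt8 and Krt18 both had a peak at the promoter, though that of Krt8 was called in 1 library. The Krt18 region (chr15:102028079-102028349) spans the gene's start and had values of 0.620 in replicate 1 (a count of 49, 95% Poisson interval of the value 0.459 to 0.820) and 0.875 in replicate 2 (145, 0.739 to 1.03). It was a low region, since only 15.7% of all shared regions were lower in replicate 1 and 34.5% in replicate 2. It held 1 footprint in replicate 1 and 4 in replicate 2, of which 1 was shared. The Krt8 peak (chr15:102004283-102004463) ended 19 bp from the gene's start and had a value of 0.694 in replicate 2 (115, 0.573 to 0.833), with 3 footprints there in that replicate. Replicate 1 had no peak at the Krt8 promoter. A shared region in a Krt8 intron (chr15:102002998-102003420, 0.721 and 0.779) lay 1062 bp from the same start, just past the 1 kb window. RefSeq places the Krt8 start elsewhere, at 102004342, and from there the intron region was at 922 bp.

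The other 3 simple epithelial keratins had less. Krt20, a keratin of the gut lining, had a peak of 0.368 at its start in replicate 2 (chr11:99438021-99438214, a count of 61) and none in replicate 1. Krt7 and Krt19, the keratins of bile ducts, had no promoter peak in either replicate. In all, 1 of 5 simple epithelial keratins had a shared promoter region (Wilson interval 3.62% to 62.4%), against 2 of 48 other keratins (1.15% to 14.0%). In replicate 2 alone the counts were 3 of 5 and 7 of 48. These intervals overlap, and the difference was not tested.

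Of the 20 stratified epithelial keratins, only Krt10 had a shared promoter region, and the start beside it is not the gene's 5′ end. Krt10 makes the type I keratin of differentiating epidermal cells. The region (chr11:99385921-99386180) lay at the start of the short internal transcript Krt10-202, 3184 bp from the gene's 5′ end. Its values were 2.00 in replicate 1 (158, 1.70 to 2.34) and 1.71 in replicate 2 (283, 1.52 to 1.92), and it held 5 shared footprints. Its intervals did not overlap those of the Krt18 region in either replicate. In RefSeq models of Krt10 the same region lies on an exon, and no RefSeq start was within 1 kb of it. A further peak of 0.570 (chr11:99386381-99386760) stood beside it in replicate 1 alone.

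The remaining stratified peaks were single-library calls at low values. In replicate 1, Krt15, a basal cell keratin, had 0.240 (a count of 19) and Krt76, a keratin of the oral palate, had 0.266 (21). In replicate 2, Krt1, the type II partner of KRT10, had 0.483 (80), Krt79 had 0.670 (111) and Krt16, a keratin of injured epidermis, had 0.211 (35). The peaks at Krt15, Krt1 and Krt79 were near starts of transcripts annotated as retained introns, 1601, 4674 and 10345 bp from the genes' 5′ ends. Krt5 and Krt14, the pair that defines basal keratinocytes, had no promoter peak in either replicate.

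None of the 24 keratins of the hair follicle, hair and nail had a shared promoter region (0%, Wilson interval 0 to 13.8). Krt71, of the inner root sheath, had a peak of 0.316 in replicate 1 (25), and Krt86, a type II hair keratin, had one of 0.676 in replicate 2 (112). The 23 keratin-associated protein genes that lie among the type I keratins had no promoter peak in either replicate. Of the 4 other keratins, Krt222 had a shared region (chr11:99238581-99238760) 115 bp from the start of a processed transcript and 5325 bp from the gene's 5′ end. Its values were 0.443 (35) and 0.356 (59), and only 6.49% and 2.92% of all shared regions were lower. No RefSeq start of Krt222 was within 1 kb of it. Krt80, a type II keratin, had a peak of 0.423 in replicate 2 (70) that began 339 bp from its start. Krt23 and Krt90 had none.

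The authors' false discovery rate (FDR) gave another readout of the same alignments, with a value for stretches of bases rather than for peaks. At least 1 base within 1 kb of a start had an FDR under 0.05 in replicate 1 for 7 keratins (62.1% of all genes), in replicate 2 for 11 keratins (66.2%) and in both for 4 keratins (60%). For 39 keratins no such base was listed in either replicate, and the same held for 6955 of all 21884 genes. At Krt18 6.75% of the bases were listed in replicate 1 and 12.7% in replicate 2, against medians of 8.62% and 12.9% over all genes. At Krt8 the shares were 0% and 9.05%, at Krt20 0% and 7.30%, and at Krt10 22.3% and 20.9%. Within 1 kb of the Krt10 5′ end itself, no base was listed in either replicate. Krt7 and Krt19 had none in either replicate.

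Krt16 stood apart in this readout. In replicate 2, 77.5% of the bases within 1 kb of its start were listed, a share that 506 of 21884 genes (2.31%) reached, and in replicate 1 no base was listed. Of those 506 genes, 12 had no listed base in replicate 1. The listed stretch (chr11:100248343-100250937) was 2.595 kb long with 94.4% of its bases listed, and its peaks had values of only 0.103 to 0.211 in replicate 2. The window at the Krt16 start was also the least unique of all keratin promoters, with 65.1% of its 31-base words found nowhere else in the genome against a median of 96.3%. Whether this has a part in the listed stretch was not tested. Windows at 5 keratin starts (Krt16, Krt6a, Krt6b, Krt81 and Krt86) were under 80% unique. In the Krt8 promoter peak 71.5% of the words were unique. The shared region at Krt10 had 85.7%, the lowest of the 43 shared regions near keratins, whose median was 100%. How the authors placed reads that match several sites is unknown here.

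Away from promoters, the comparison with all genes depended on the measure and the window. A distal shared region, more than 1 kb from every protein-coding start, lay within 50 kb of a start for 38 of 53 keratins (71.7%) against 71% of all genes. The mean number was 1.92 per keratin and 2.32 per gene over all genes, and the medians were 1 and 2. Within 20 kb, 15 of 53 keratins had a distal shared region against 51.3% of all genes. Neighbouring keratins share these regions, so the counts per gene rest on 35 distinct distal regions. With promoter regions of any gene added there were 43 shared regions, beside 21 regions of replicate 1 alone and 28 of replicate 2 alone. Over the genome there were 45831 shared regions, beside 28168 of replicate 1 alone and 25253 of replicate 2 alone. Of the 43, 32 were intergenic, meaning outside protein-coding genes, 1 lay in an intron, 2 on exons and 8 at promoters.

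Counts per class are given as a description, with no test between classes. All 5 simple epithelial keratins had a distal shared region within 50 kb, with 10 at Krt8, 7 at Krt18 and 2 each at Krt7, Krt19 and Krt20. Among stratified keratins 14 of 20 had at least 1, led by Krt78 with 9, Krt79 with 8, Krt42 with 7, Krt17 with 5 and Krt16 with 4. The class means were 4.6 for simple, 2.5 for stratified, 1.13 for inner root sheath and companion layer, and 0.625 for hair and nail keratins, while simple and stratified keratins had the same median of 2. The simple mean rests on Krt8 and Krt18, which share most of their regions with the stratified genes Krt78 and Krt79. For 15 keratins (28% against 17.4% of all genes) there was no shared region of any kind within 50 kb. These were 8 hair and nail genes (Krt31, Krt32, Krt33a, Krt33b, Krt34, Krt35, Krt36, Krt39), the companion layer gene Krt75, and the epidermal and oral genes Krt1, Krt5, Krt6a, Krt6b, Krt76 and Krt77. Counts of 7 or more were found at 5 genes near cluster ends, 3 stratified and 2 simple epithelial, as the plot by gene order shows. The 7 at Krt42 include regions 1005 and 1585 bp from the start of the neighbouring gene Eif1.

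**Figure D2:**
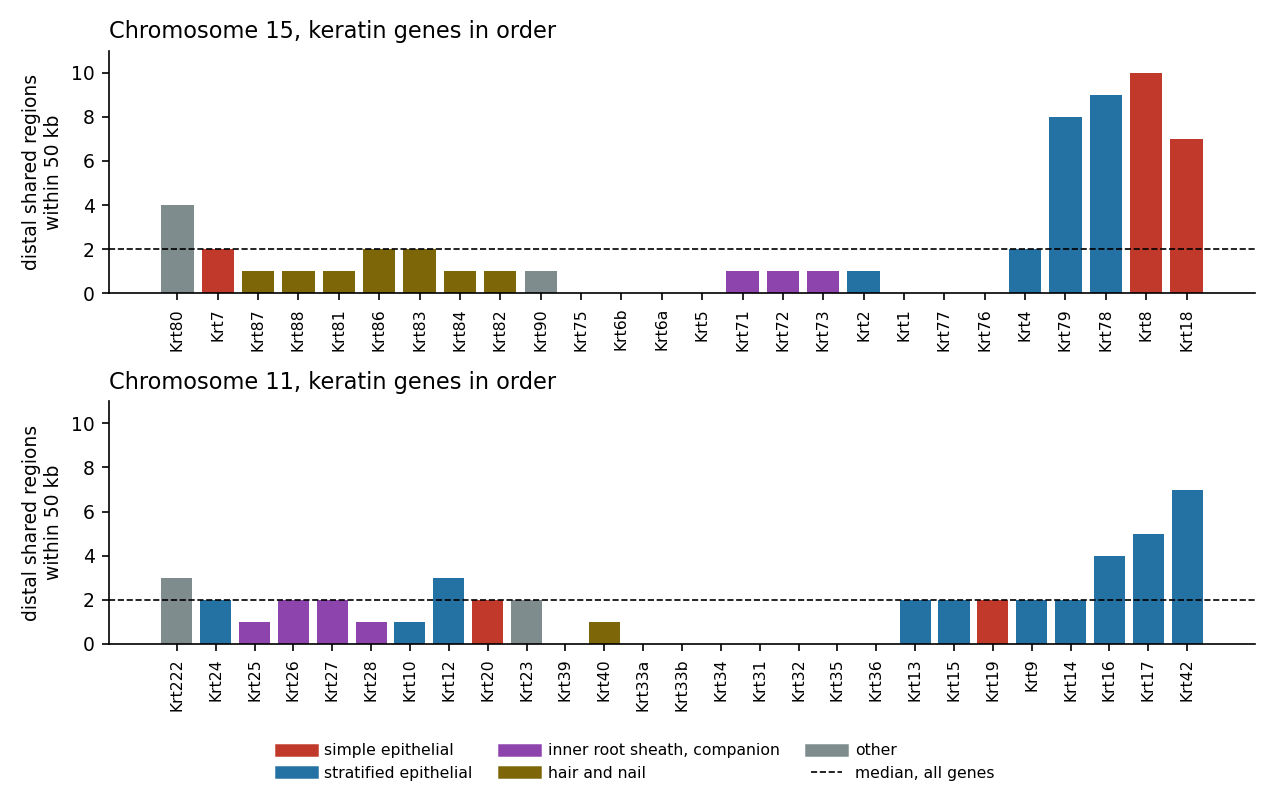
Distal shared regions counted up to 50 kb from the starts of each keratin gene, in chromosomal order and coloured by class, with the median over all genes (2) as a dashed line. Krt79, Krt78, Krt8 and Krt18 with 7 to 10 and Krt42 with 7 stand at cluster ends, and Krt75 to Krt5 and Krt33a to Krt36 have 0.

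Of the 35 distal regions, 15 lay in 2 short intervals, 8 between Krt78 and Krt8 and 7 between Krt42 and Eif1, and 20 lay elsewhere. Of the 10 highest distal regions near keratins, by mean rank over the replicates, 5 lay between Krt78 and Krt8, 4 between Krt42 and Eif1, a translation factor gene, and 1 beside Eif4b, another translation factor gene. The interval between Krt78 and Krt8 is 42.4 kb long and held 8 shared regions within 14.6 kb, upstream of Krt78 and past the 3′ end of Krt8. The highest had 7.30 in replicate 1 (577, 6.72 to 7.92) and 7.18 in replicate 2 (1190, 6.78 to 7.60), above 88.1% and 91.0% of all shared regions, with 4 shared footprints. It lay 19454 bp from the Krt78 start. The next highest had 7.04 and 5.79 with 6 shared footprints, and the one that followed had 5.20 and 4.06 with 2, at 19882 bp from the Krt8 start. Values in the other 5 ranged from 0.544 to 2.56 in replicate 1 and from 0.682 to 2.96 in replicate 2.

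These 8 regions lay within 50 kb of keratins of different classes. All 8 were that near to Krt79, Krt78 and Krt8, 4 to Krt18 and 2 to Krt4, a keratin of mucosal epithelia. Beside the Krt18 promoter region, at 0.620 and 0.875, 6 of the 8 had higher values in both replicates, and the other 2 had lower values, 0.544 and 0.682 and 0.608 and 0.785. GENCODE M21 has no protein-coding gene in the interval, and its noncoding genes were not read. A predicted RefSeq transcript of Krt78, 50.624 kb long, runs through all 8 regions, with none of them on its exons. Past Krt18, a region at chr15:102065761-102065960 had 5.59 and 3.92. It was 37581 bp from the Krt18 start but 7813 bp from that of Eif4b, whose own promoter had 14.4 and 9.57.

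On chromosome 11, the 50.013 kb between Krt42 and Eif1 held 7 distal shared regions over 36.8 kb, with values from 1.18 to 3.66 in replicate 1 and from 1.07 to 3.996 in replicate 2. The highest (chr11:100298401-100298600) had 3.66 (289) and 3.996 (662), and the next 3 had 2.99 and 3.57, 2.39 and 3.02, and 2.23 and 2.78. The last of these was the nearest to a keratin, at 12210 bp from the Krt42 start. All 7 were within 50 kb of Krt42, 5 of Krt17 and 4 of Krt16, 3 stratified keratins without a shared promoter region. The regions chr11:100318541-100318880 and chr11:100317901-100318300 among them lay only 1005 and 1585 bp from the Eif1 start, outside its 1 kb promoter window. A long noncoding gene, Gm14206, lies in the interval, and the start of its longest predicted RefSeq transcript was 306 bp from the second highest region. The Eif1 promoter, the highest shared region within 50 kb of any keratin, had 29.5 and 21.1. Between Krt19 and Krt9 there were 2 regions, at 1.35 and 1.39 and at 0.544 and 0.815, the nearer 20456 bp from the Krt19 start.

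**Figure D3:**
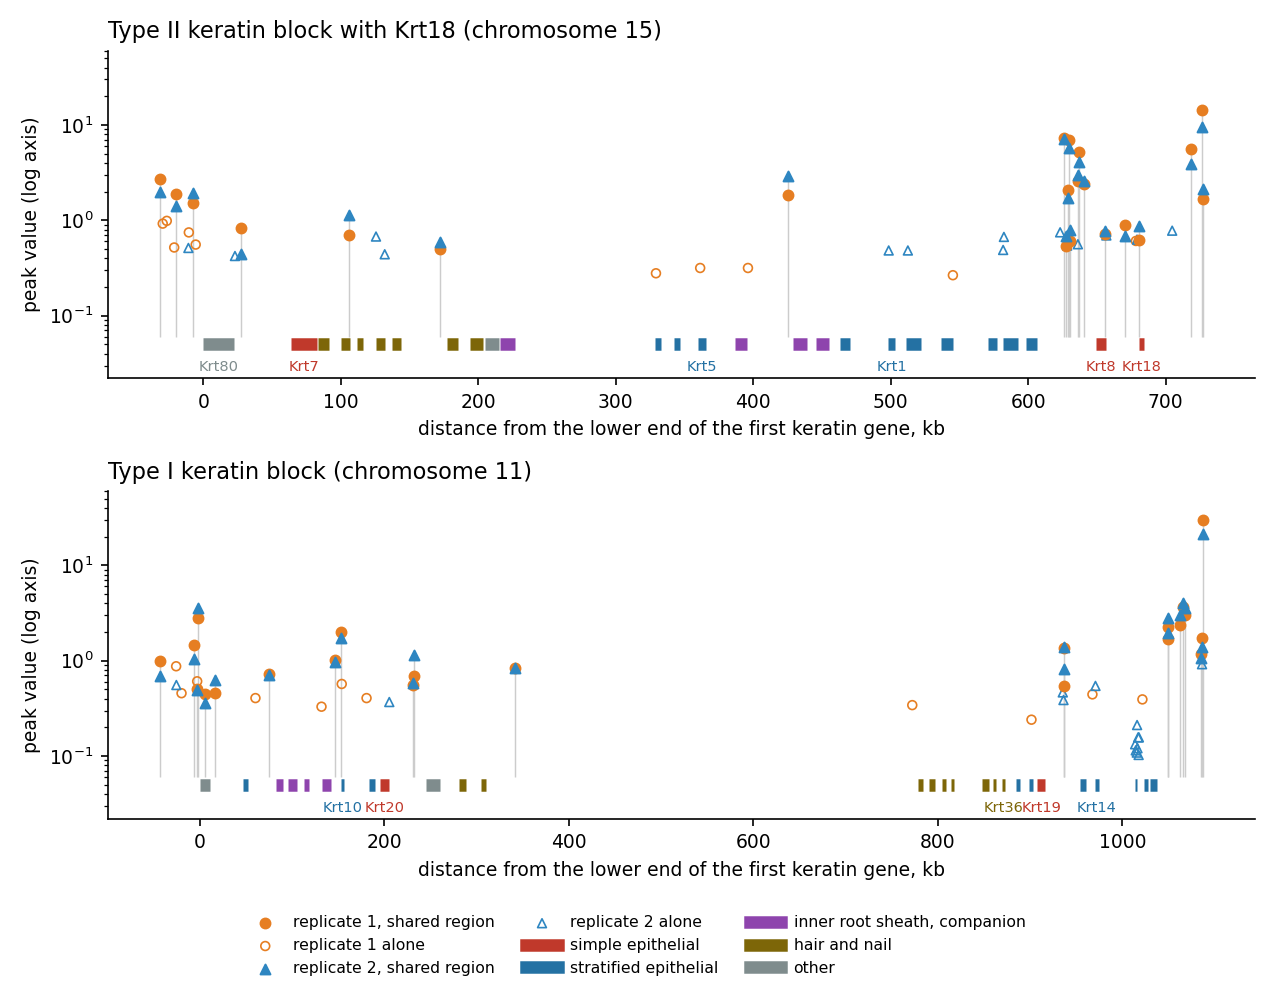
Peak values on a log axis along both keratin clusters, against the distance in kb from the lower end of the first keratin gene, for shared regions (filled symbols, joined to the base by grey lines) and peaks of 1 replicate alone (open symbols). Coloured bars mark the keratin genes by class, and regions within 50 kb of a keratin start are drawn. The 8 regions between Krt78 and Krt8 reach 7.30, and the hair and epidermal parts of both clusters hold few shared regions.

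Between these intervals lay long stretches with no shared region. The longest ran for 594.7 kb on chromosome 11 (between 99574420 and 100169121) and holds 10 keratins, from Krt33a to Krt19. It was longer than 98.6% of the 45810 gaps between shared regions, whose median length was 12.6 kb. On chromosome 15, gaps of 252.7 kb and 200.76 kb hold 8 and 9 keratins, and a lone region separates them (chr15:101772781-101772980, 1.84 and 2.93), 5713 bp from the start of Krt72. A gap of 112.4 kb holds Krt9, Krt14, Krt16, Krt17 and Krt42. The type I block as a whole had 9.64 shared regions per Mb and the type II block with Krt18 had 21.9, against 16.8 over the 21 chromosomes used. These densities depend on where the blocks end. Of the 15 shared regions in the type II block, 8 lay between Krt78 and Krt8. The type I block ends at Krt42 and so leaves out the 7 regions between Krt42 and Eif1. Both blocks are dense in genes, with 65.6 and 42.4 protein-coding starts per Mb against 8.05 over those chromosomes.

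Few footprints lay near keratin starts. Shared footprints lay within 1 kb of a start for 2 keratins, Krt10 with 5 and Krt18 with 1, against 52.3% of all genes. Replicate 1 alone gave 2 keratins (56% of all genes) and replicate 2 gave 8 (64%). The 8 were Krt10 with 7 footprints, Krt18 and Krt1 with 4, Krt8 and Krt20 with 3, and Krt222, Krt80 and Krt86 with 1. Replicate 2 had 230992 footprints in all and replicate 1 had 151079.

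The 43 shared regions were searched on both strands for 10 short motifs. Matches describe letters and do not show that a factor binds. Each motif was searched as 1 fixed pattern, so sites that differ from it by a letter were not counted. The core of the CTCF motif was present in 12 of 35 distal keratin regions (34.3%) against 26.3% of all distal shared regions. Over all 43 regions it had 13 matches, and 10 of these (76.9%) touched a shared footprint, against 68.2% over all shared regions. In the last of the 3 sequences between Krt78 and Krt8 it ran from base 133 to 144 on the minus strand with all 12 bases in capitals. The GATA motif AGATAA was in 3 of 35 distal keratin regions (8.57%) against 19.1%, and in none of the 8 between Krt78 and Krt8. The FOXA motif TGTTTAC was in none of the 35 against 2.99%. The AP-1 motif TGANTCA was in 1 of 35 (2.86% against 8.77%), at bases 146 to 152 and 228 to 234 of the sequence richest in CpG, outside the capitals. That sequence also held 5 matches of the Sp1 motif GGGCGG, of which the one at bases 119 to 124 lay wholly in capitals. Over all distal keratin regions the Sp1 motif was in 5 of 35 (14.3% against 15.7%). The highest sequence of each interval matched none of the 10 patterns as searched, and other forms of these motifs were not looked for.

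The letters of the keratin promoters differed from those of most genes. In 301 bases, from 250 before to 50 after the 5′ end, keratins had a median of 4 CpG pairs against 11 over all genes. Genes with a shared region at the 5′ end had a median of 20 and genes without one had 3. Krt18 had 18 and only Krt87, a hair keratin with no promoter peak, had more, at 23. Krt8 had 4, Krt20 had 6, and Krt7 and Krt19 had 1 each. TATAAA was present on either strand in 25 of 53 keratin promoters (47.2%) against 12.7% of all genes and 19.4% of genes without a shared region at the 5′ end. By class it was in 10 of 16 hair and nail, 6 of 8 inner root sheath and companion layer, 8 of 20 stratified and 1 of 5 simple epithelial keratins. The Sp1 motif GGGCGG was in 6 of 53 (11.3%) against 43.1% of all genes and 18.5% of genes without such a region.

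Lists of keratin partners, other intermediate filaments, cornified envelope genes and keratin regulators were read in the same way. Of 10 desmosome and plakin genes, which anchor keratin filaments at cell junctions, 7 had a shared promoter region, the highest being Jup (plakoglobin) with 9.32 and 5.32, Pkp4 with 4.24 and 3.55, Plec with 3.39 and 2.82 and Pkp2 with 2.42 and 1.69. Of 15 other intermediate filament genes 11 had one, including the lamin genes Lmna with 9.96 and 7.57 and Lmnb1 with 9.29 and 6.97, then Synm with 3.86 and 4.12 and Gfap with 3.68 and 2.40. Of 15 genes of the cornified envelope, the protein shell of dead epidermal cells, only Tgm1 had one, with 1.01 and 0.670. Of 20 listed regulators of keratin genes 11 had one, led by Grhl1 with 8.94 and 6.78, Klf5 with 6.19 and 5.35, Elf3 with 3.18 and 3.37 and Gata3 with 3.14 and 2.92. The replicate 1 peak of the Gata3 region lay outside the 1 kb window, which the region reached through its replicate 2 peak. Trp63, the master regulator of stratified epithelium, had no promoter peak in either replicate. The shared share was 70% for desmosome and plakin genes (Wilson interval 39.7 to 89.2) and 73.3% for other intermediate filament genes (48.0 to 89.1). For the regulators it was 55% (34.2 to 74.2) and for the cornified envelope 6.67% (1.19 to 29.8). The share over all genes was 58.4%, and the lists were chosen with earlier results of these data known. None of these lists was tested against all genes.

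Markers of the cell types that could carry the keratin signal were read beside them. All 8 erythroid markers had a shared promoter region, with 2.10 to 10.1 over both replicates. Of 8 hepatoblast markers 3 did (Foxa3 with 12.0 and 7.93, Afp with 1.40 and 1.42, Foxa1 with 0.899 and 0.827), of 8 bile duct markers 2 (Muc1 with 4.18 and 3.60, Sox9 with 0.304 and 0.598) and of 7 mesothelial markers 1 (Podxl with 3.51 and 3.21). Of 8 epidermal markers 3 did, Sfn with 1.01 and 1.06, Perp with 0.468 and 0.924 and Dsp with 0.418 and 0.857. Replicate 2 had promoter peaks at more of the bile duct markers, 7 against 4 of 8, and of the mesothelial markers, 6 against 1 of 7, and of the simple epithelial keratins, 3 against 1 of 5. Lists that mark no cell type varied. Replicate 2 had peaks at 17 against 11 of 20 regulators and 15 against 12 of 15 other intermediate filament genes. It had them at 8 against 7 of 10 desmosome and plakin genes, but 1 against 2 of 15 cornified envelope genes. Hepatoblast markers had 6 against 5 of 8, and epidermal and erythroid markers had equal counts. Over all genes the shares were 65.3% and 60.6%. No peak of either replicate stood at the promoters of the mesothelial marker Upk3b or of the epidermal markers Trp63, Lor and Itgb4. Each bile duct and hepatoblast marker had a peak in at least 1 replicate, as did 14683 of all 21884 genes. Shared promoter regions were at 37.5% of hepatoblast and 25% of bile duct markers, against 58.4% of all genes. The part of any of these cell types in the keratin peaks was not tested.

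**Figure D4:**
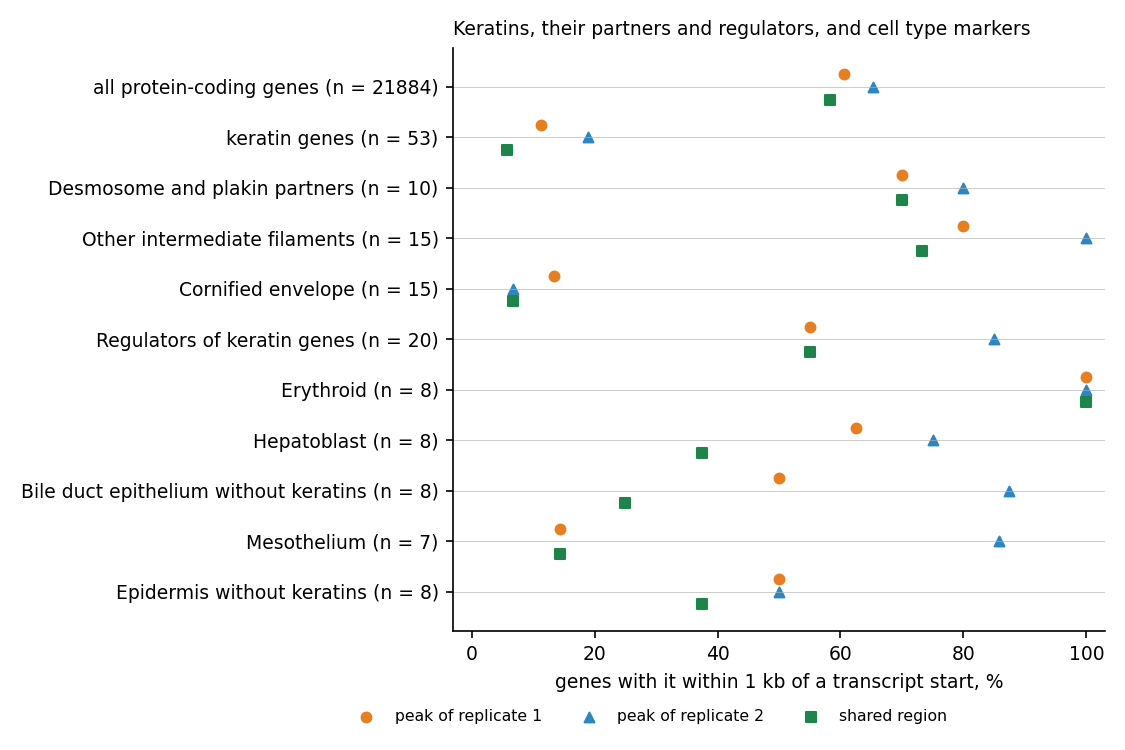
Percent of genes with a peak of replicate 1 (circles), of replicate 2 (triangles) or a shared region (squares) within 1 kb of a start. Rows are all genes, the keratins, the lists of partners, other intermediate filaments, cornified envelope and regulators, and the cell type markers. Keratins (5.66% shared) and cornified envelope genes (6.67%) sit at the low end, and the erythroid markers are at 100%.

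The ratio between the libraries varied over the keratin regions. After the median log2 ratio of replicate 2 to replicate 1 over all shared regions (-0.19) was set to 0, 28 of the 43 keratin regions were above 0, with a median of 0.22. Over all 45831 shared regions, 22915 were above 0. Among the 35 distal regions 24 were above 0 with a median of 0.26. Over all 25847 distal shared regions 11947 were above 0, with a median of -0.06. By chromosome, 16 of 22 regions were above 0 on chromosome 11 and 12 of 21 on chromosome 15, where the 16 intergenic regions had a median of 0.04. The Krt18 promoter region was at 0.68 and the lone region near Krt72 at 0.86, while the 3 printed regions between Krt78 and Krt8 were at 0.16, -0.09 and -0.17 and the region beside Eif4b at -0.32. With 1 library on each side this compares 2 libraries and was not tested.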

How the data were processed

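DNase-seq of 2 libraries (1 group, 2 replicates) was read from deposited lists (build mm10). The authors derived, per notes in the deposit, peaks, with a signal value per peak of unstated scale, and an FDR per stretch of bases (a p-value-like score, deposited only under 0.05) from the filtered alignment of each library. Footprints were derived from the alignment and the FDR, and each deposited footprint has the p-value column at 0.01. No source used here names the aligner, callers or thresholds. The longer of 2 peak lists per library was used, and the shorter (51901 and 46323 peaks) as an alternative.

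Peaks of both replicates were merged at an overlap of at least 1 bp (99252 regions), and the value in a replicate is that of its highest peak. Promoters reach 1 kb on either side of any GENCODE M21 transcript start. Counts were recovered by dividing values by the step of the library (tolerance 0.05 of a step), with 95% Poisson intervals. For shares, 95% Wilson intervals are given. Both cover only counting error. Region assignment was tested on simulated data. Analyses used Python 3.11.15 with pandas 2.3.3, numpy 2.4.6 and scipy 1.17.1. No test between groups exists in this design, and no gene set was tested.

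Members, classes and lists were chosen with earlier results of these data known. Named with values were the 5 simple epithelial keratins, every keratin with a promoter peak in either replicate, the 10 highest distal shared regions within 50 kb, and from each list every gene with a shared promoter region where 5 or fewer had one, otherwise the 4 highest. Of the keratins listed by class, Krt74 (a pseudogene in this annotation) and Krt85 (a symbol it does not use) matched no protein-coding gene. Motif and word counts were made on assembly GRCm38.p6, and RefSeq models of the same assembly were read for all 53 genes. Genes named outside the naming rule were chosen after their values were seen. The alternatives tried were 1 replicate alone, the shorter list, stricter overlap, the upper 50% of peaks, the 5′ end only, other windows and, added after seeing the data, RefSeq starts.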

Additional observations from a re-analysis of the deposited data

How the results depend on the processing

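Of 66 values recomputed for 8 results under other settings, 40 stayed within 1.5 times the reported value. Keratins with a shared promoter region (3) numbered 6 to 10 with peaks of 1 library alone. They numbered 1 with the shorter list, with the upper 50% of peaks or with the 5′ end only. Simple epithelial keratins (1) numbered 1 to 3 with 1 library alone, 0 with the shorter list or the upper 50% of peaks, and 2 with a 2500 bp window or RefSeq starts. Stratified keratins (1) numbered 3 to 4 with 1 library alone and 0 with the 5′ end only or RefSeq starts. Hair and follicle keratins (0) numbered 1 to 1 with 1 library alone, a different gene in each. With RefSeq starts the keratins with a shared promoter region were Krt18 and Krt8, 2 in all, in place of Krt18, Krt10 and Krt222. Keratins with a distal region (38) numbered 24 with the upper 50% of peaks and 15 within 20 kb, and simple epithelial ones (5) numbered 3 and 2. Over all genes the distal shares under these settings were 54.0% and 51.3%. Distinct shared regions (43) numbered 66 to 73 with 1 library alone, 26 with the upper 50% of peaks and 20 within 20 kb. Keratins with a shared footprint (2) numbered 2 to 8 with 1 library alone and 1 with the 5′ end only. The share over all genes with a promoter region was 51.1% to 65.3% under the settings other than RefSeq starts, which were read for keratins alone. No paired analysis was possible because there is 1 group and no test between groups.

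Lists hold only called peaks, so closed and weakly open promoters below the calling threshold cannot be told apart. Peaks near the lower limit of 7 counts have wide intervals. With 2 libraries and the same donor label, spread between animals was not measured.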
